A study of Mus musculus with 12 samples.

Results

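Deletion of AF10 in mouse embryonic fibroblasts (MEFs), before any reprogramming was started, was followed by lower levels of interferon-induced genes and by a higher level of the metallothionein gene Mt1. The comparison used 4 of the 12 libraries of the study, chosen by their titles: 2 of the group MEF_creAF10 and 2 of the group MEF_fl. MEF_creAF10 cells have the genotype AF10 -/- with OSKM and rtTA, per the labels, and had been infected with an adenovirus that carries Cre recombinase under the CMV promoter. MEF_fl cells have the genotype AF10 fl/fl with OSKM and rtTA and had been infected with an empty adenovirus of the same kind. OSKM is the cassette of the reprogramming factors Pou5f1, Sox2, Klf4 and Myc, and rtTA is the activator that switches it on in the presence of doxycycline. Both groups carry the cassette and both were exposed to virus for 1 h. There was no group without floxed alleles that received the Cre virus, so the deletion and the Cre virus cannot be told apart. The labels do not give the time between infection and harvest for the MEFs. The other 8 libraries are from day 4 of reprogramming, and those in DMSO are used below only to ask whether a change in MEFs differed from the change on day 4.

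AF10, the product of Mllt10, is a chromatin protein that binds DOT1L, the enzyme that methylates lysine 79 of histone H3 along transcribed genes. Type I interferons bind a receptor whose kinases JAK1 and TYK2 activate STAT proteins, which with IRF9 switch on genes that carry an interferon-stimulated response element near their start. Fibroblasts both make and respond to type I interferon. Metallothioneins are small proteins that bind zinc and copper and are switched on by metals and by glucocorticoids.

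The expected counts summed to 16258109 and 22800753 in replicates 1 and 2 of MEF_creAF10 and to 18711382 and 17477675 in those of MEF_fl. The replicate numbers mark a pair of cell sources: 4 Y-linked genes had 4307 and 8 counts in sum in MEF_creAF10 and 4778 and 18 in MEF_fl. The labels do not name the sources. Cells of the same number were compared with each other, by a term for the replicate number in the fit. The spread behind the p-values was pooled with the day 4 libraries and shared across genes. The p-values therefore measure neither how alike the change was in these sources alone nor the spread between many animals. The fibroblast label was borne out by its markers: Col1a1 had 6596 and 5716 TPM (the deposited level per length) in MEF_creAF10 and 8041 and 5553 TPM in MEF_fl. Vim had 5427 and 6614 TPM in MEF_creAF10 and 5178 and 6483 TPM in MEF_fl. Over the 4 libraries, fibroblast and matrix genes summed to 49496 to 60470 TPM. Markers of chondrocytes and osteoblasts summed to 760 to 1293 TPM, of adipocytes to 144 to 348 TPM and of neural cells to 166 to 214 TPM. Muscle, endothelial and keratinocyte markers summed to at most 37.8 TPM each. Markers of macrophages and blood, 13 of 16 of which passed the filter on low counts, summed to 27.9 and 11.1 TPM in MEF_creAF10 and to 24.2 and 10.9 TPM in MEF_fl, and the pan-leukocyte gene Ptprc had 1 or 2 counts in each library. None of the 13 was called in either direction. Outside that list Mpeg1, a gene named for its expression in macrophages, was called lower. It had 2.33 and 1.26 TPM in MEF_creAF10 and 3.38 and 3.26 TPM in MEF_fl. In bulk RNA, fewer cells of a type and less RNA per cell cannot be told apart.

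Mllt10, the targeted gene, had 35.4 and 34.4 CPM (counts scaled to a common library size) in MEF_creAF10 and 43.1 and 45.4 CPM in MEF_fl. Both MEF_creAF10 libraries lay below both MEF_fl libraries, and most of the reads were still there. The log2 change was -0.34 ± 0.08 (SE), and the fall passed the test (quasi-likelihood test of edgeR with Benjamini-Hochberg adjustment, adjusted p = 0.0322, 0.704 without the replicate block, 0.265 with DESeq2). It lost the call without any 1 of the 4 libraries, with edgeR adjusted p of 0.219 to 0.833. The files sum Mllt10 reads over the whole gene, so reads of the deleted part are not separated from the rest and the loss of protein is not measured. Dot1l had 56.6 and 49.4 CPM in MEF_creAF10 and 56.5 and 53.5 CPM in MEF_fl, groups that overlap, with a log2 difference of -0.06 ± 0.08 (SE). None of Dot1l and the other 7 partners on the list was called: the AF10 paralog Mllt6 had a log2 difference of -0.05 ± 0.07, Mllt1, which encodes ENL, -0.08 ± 0.09 and Mllt3, which encodes AF9, -0.01 ± 0.09 (SE).

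**Figure D1:**
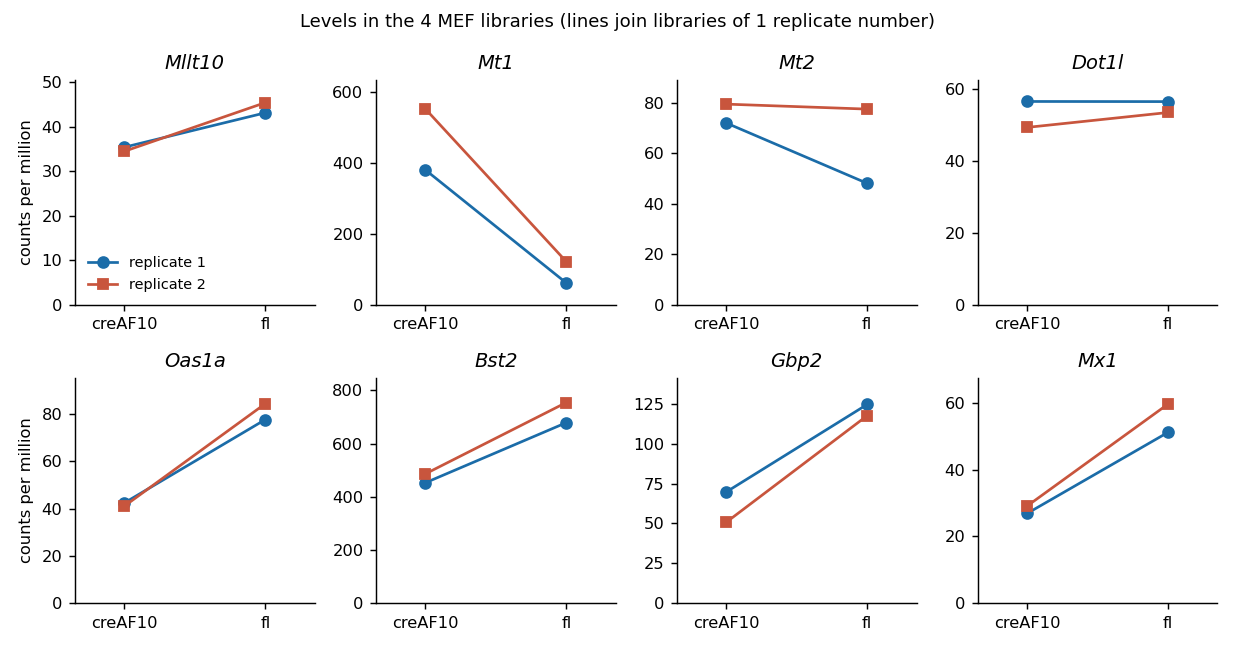
Levels in CPM in each of the 4 MEF libraries, MEF_creAF10 left and MEF_fl right, with a line joining libraries of the same replicate number. Mllt10, Oas1a, Bst2, Gbp2 and Mx1 are lower in both MEF_creAF10 libraries, Mt1 is higher in both, and the groups of Dot1l and Mt2 overlap.

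Of 13936 genes tested, 117 fell in MEF_creAF10, 0.840% of those tested, and 17 rose, 0.122%. The changes were small: 11 genes fell and 3 rose by more than 2-fold, 60 fell by between 0.5 and 1 on the log2 scale, and 46 fell by less than 0.5. The median log2 change of all genes was -0.0038. Of the 117 genes that fell, 116 were lower in both pairs, the exception being Rangrf, and in 99 (84.6%) both MEF_creAF10 libraries lay below both MEF_fl libraries. Over all 13936 genes tested, 3830 (27.5%) were lower in both pairs and 1510 (10.8%) had groups apart in that direction; being called lower favours both patterns. In the unblocked fit, which takes the difference between the cell sources as noise, 0 genes were called by edgeR in either direction and 300 had an unadjusted p under 0.05, against 968 with the block. DESeq2 with the block called 64 lower and 5 higher.

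The pairs did not carry equal weight. Of the 117 genes that fell, 99 changed more in the pair of replicate 2 and 18 more in the pair of replicate 1. Without MEF_creAF10 replicate 2 or MEF_fl replicate 2, 18 and 17 genes were called lower. Without MEF_creAF10 replicate 1 or MEF_fl replicate 1, 87 and 86 were. The number called higher was 4 without either library of replicate 1 and 11 without either library of replicate 2. Each of these fits leaves 1 pair of MEFs, which is then assumed to vary as the day 4 libraries do. Of 65 called genes named by the rule for named genes, 15 kept their call in all 4 of these fits, among them Mt1, Oas1a, Gbp2, Gbp3, Gbp9, Iigp1, Bst2, Mx1, Ifi44, Gvin1, Gm4902, Oasl2, Lgals9 and Ube2l6. The others lost it in at least 1 of them.

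**Figure D2:**
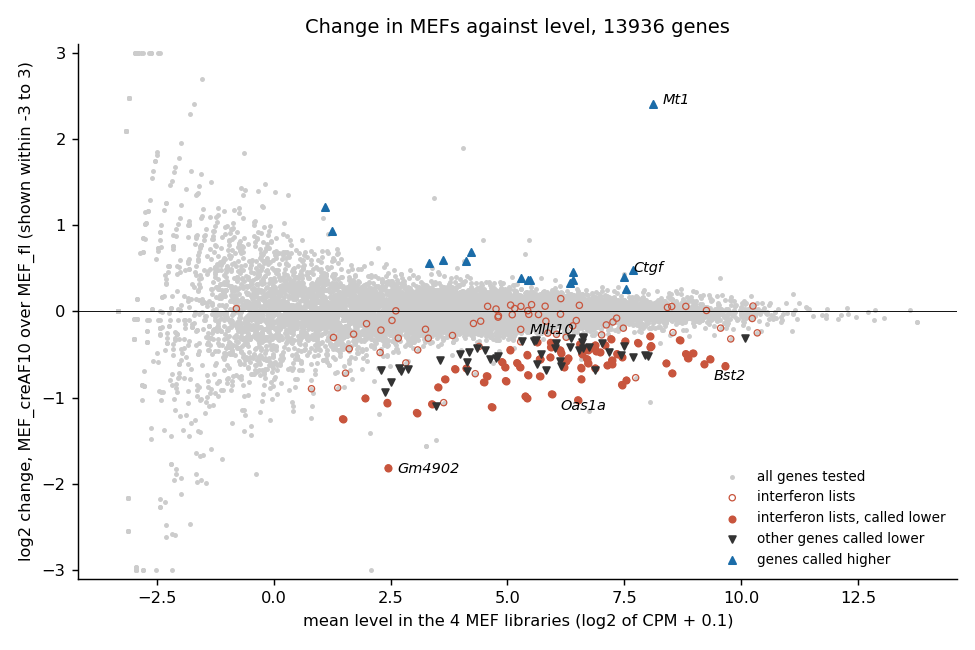
Log2 change of MEF_creAF10 over MEF_fl against the mean level in the 4 MEF libraries for the 13936 genes tested, drawn within -3 to 3 and without Rangrf and Prl2c4, which were seen in 1 library. Filled circles are interferon genes that fell, down-pointing triangles other genes that fell, up-pointing triangles genes that rose, and Mt1 stands apart at 2.40.

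Genes of the interferon response made up most of the fall. Of 144 genes in 11 lists that follow the pathway from ligand to effector, 141 are in the files and 136 passed the filter on low counts. Of these 136, 72 fell (52.9%, against 0.840% of all genes tested) and 0 rose. A further 47 had negative log2 differences without passing the test, so 119 of 136 were negative (87.5%, against 51.3% of all genes tested). In both pairs 105 were negative (77.2%, against 27.5%). These lists were known to move from earlier results of these data, so the shares describe the fall and do not test it. The median log2 change over the 136 genes was -0.43, with medians of -0.37 and -0.49 within the pairs of replicates 1 and 2. Their levels summed to 22821 and 22197 TPM in MEF_creAF10 and to 27292 and 28878 TPM in MEF_fl. Without the replicate block edgeR called 0 of them, while 120 of 136 were still negative. The count was 15 without MEF_creAF10 replicate 2, 14 without MEF_fl replicate 2, 61 without MEF_creAF10 replicate 1 and 60 without MEF_fl replicate 1.

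**Figure D3:**
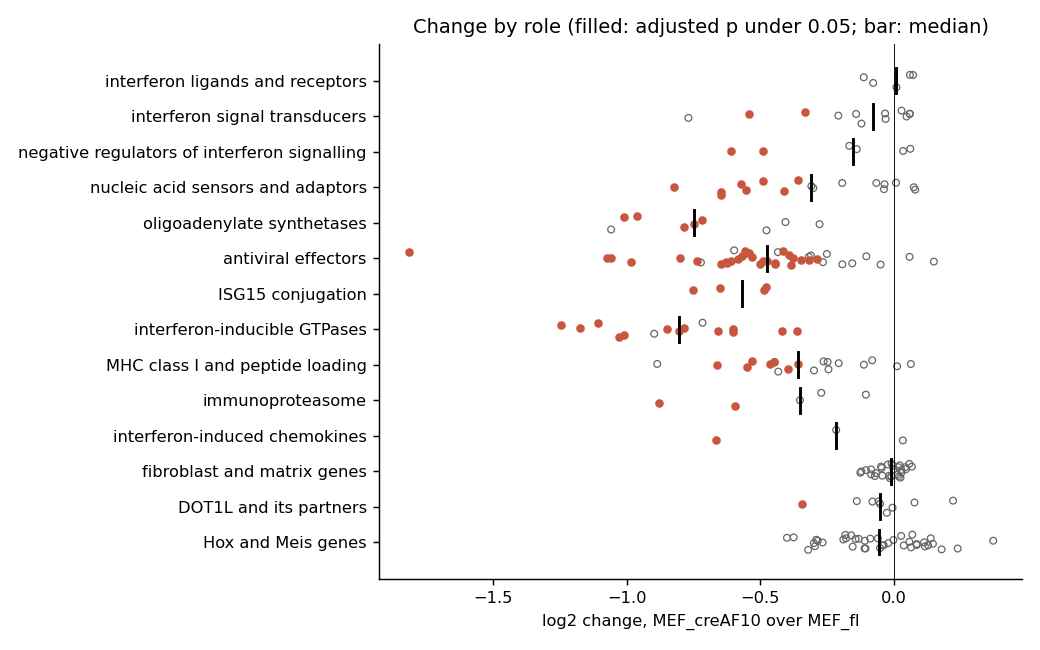
Log2 change of MEF_creAF10 over MEF_fl for each gene tested, by list: 11 interferon lists from ligands and receptors down to chemokines, then fibroblast and matrix genes, DOT1L and its partners, and Hox and Meis genes. Filled points passed the test and bars are list medians, which are -0.80 for the GTPases, -0.75 for the list of oligoadenylate synthetases and -0.01 for fibroblast and matrix genes.

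The promoters of these genes are shown because many carry the letters of the interferon-stimulated response element. The motif searched was GAAANNGAAA on either strand (TTTCNNTTTC on the other) in the 250 bases before the start, in promoter sequences of RefSeq for build GRCm38.p6. The files' own counts were made on build mm9. They were joined by transcript identifier, or by gene symbol where no identifier matched, not by position. Of the 117 genes that fell 90 have a promoter in that table, and 34 of them (37.8%) hold the motif, against 344 of 11049 genes tested (3.11%) and 2.98% of all promoters in the table. Among interferon genes it is in 28 of 55 that fell (50.9%) and in 11 of 52 that did not pass the test (21.2%). It is in 6 of 35 genes (17.1%) that fell outside the interferon lists. Most genes that fell are interferon genes and several are close relatives, so these shares describe the set and are no test. The 150 bases before the start of 5 of the genes that fell follow, with the motif in capitals. They were chosen because they hold it; Oasl2, Ifi44, Psmb9 and Tap1, which also fell, have 0 copies in the same window. Where capitals run past 10 bases, copies overlap.
Oas1a, chr5:120907526-120907675, minus strand: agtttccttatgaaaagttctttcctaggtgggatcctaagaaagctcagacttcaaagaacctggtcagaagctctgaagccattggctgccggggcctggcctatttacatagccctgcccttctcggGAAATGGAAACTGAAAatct
Bst2, chr8:71537473-71537622, minus strand: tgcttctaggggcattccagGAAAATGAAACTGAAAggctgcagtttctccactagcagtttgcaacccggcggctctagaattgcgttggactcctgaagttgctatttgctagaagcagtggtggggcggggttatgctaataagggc
Gbp2, chr3:142620513-142620662, plus strand: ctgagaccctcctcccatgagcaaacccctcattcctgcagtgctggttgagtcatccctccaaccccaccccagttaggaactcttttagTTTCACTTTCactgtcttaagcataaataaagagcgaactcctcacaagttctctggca
Ifit1, chr19:34640739-34640888, plus strand: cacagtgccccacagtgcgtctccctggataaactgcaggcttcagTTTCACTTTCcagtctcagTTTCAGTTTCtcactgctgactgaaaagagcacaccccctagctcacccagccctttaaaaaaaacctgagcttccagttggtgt
Isg15, chr4:156200819-156200968, minus strand: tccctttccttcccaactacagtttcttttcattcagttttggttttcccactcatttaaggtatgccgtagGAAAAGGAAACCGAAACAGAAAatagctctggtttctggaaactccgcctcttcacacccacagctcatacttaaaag

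In Oas1a the capitals begin 20 bases before the start, in Gbp2 59, in Isg15 78, in Ifit1 104 and in Bst2 130 bases before it. All 5 genes fell, and their values follow by role.

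At the top of the pathway, none of 5 ligand and receptor genes tested was called. Ifnar1, a chain of the type I interferon receptor, had 149.3 and 164.9 CPM in MEF_creAF10 and 160.7 and 171.0 CPM in MEF_fl. The interferon gene Ifnb1 had 0 counts in both MEF_creAF10 libraries and 4 and 1 counts in MEF_fl, too few to be tested. Stat2, a signal transducer of this receptor, fell. Stat2 had 357 and 370 CPM in MEF_creAF10 and 446 and 469 CPM in MEF_fl, a log2 change of -0.33 ± 0.07 (SE). The groups are apart. Irf7, the factor that amplifies interferon production, had 169 and 147 CPM in MEF_creAF10 and 246 and 294 CPM in MEF_fl. Its groups too were apart, with a log2 difference of -0.77 ± 0.15 (SE), but it did not pass the test (edgeR adjusted p = 0.113). The kinase genes Jak1 and Tyk2 had log2 differences of 0.06 and -0.03 and Irf9, the DNA-binding partner of the STATs, -0.12, and none of them passed.

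Sensors of foreign nucleic acid and feedback inhibitors were next. Of 17 sensors and adaptors 8 fell. Ifih1, a sensor of viral RNA in the cytosol, had 63.9 and 59.5 CPM in MEF_creAF10 and 92.1 and 91.3 CPM in MEF_fl, a log2 change of -0.57 ± 0.09 (SE). Ddx58, which encodes the RNA sensor RIG-I, fell by 0.41 ± 0.07 on the log2 scale, Dhx58, a related helicase, by 0.55 ± 0.10, and Tlr3, the RNA receptor of endosomes, by 0.65 ± 0.10 (SE). Zbp1, which binds nucleic acid in the Z form, had 25.0 and 8.66 CPM in MEF_creAF10 and 36.0 and 19.9 CPM in MEF_fl, so that the groups overlap across replicates while each pair fell. The adaptors downstream of these sensors had small differences that did not pass: Mavs -0.04 and Tmem173, which encodes STING, 0.07 on the log2 scale. Of 6 negative regulators 2 fell. Usp18, which removes ISG15 from proteins and dampens the receptor, had 129 and 141 CPM in MEF_creAF10 and 178 and 201 CPM in MEF_fl, and Trim30a had 139 and 100 CPM in MEF_creAF10 and 184 and 175 CPM in MEF_fl. Socs1 and Socs3, which block JAK kinases, had log2 differences of -0.14 and -0.17 without passing the test.

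The oligoadenylate synthetases make a small messenger molecule when they bind viral RNA. On their list 5 of 9 genes tested fell, and all 9 were negative in both pairs. Oas1a had 42.4 and 41.1 CPM in MEF_creAF10 and 77.8 and 84.5 CPM in MEF_fl, 1.94-fold lower. Its log2 change of -0.96 ± 0.09 (SE) had the lowest p of all genes that fell (edgeR adjusted p = 1.84e-07). Oas2 fell by 0.75 ± 0.12, Oas3 by 1.01 ± 0.22, Oasl1 by 0.79 ± 0.15 and Oasl2 by 0.72 ± 0.08 on the log2 scale (SE). Oas1g had a log2 difference of -1.06 ± 0.23 and was just outside the threshold (edgeR adjusted p = 0.0519). The Oas1 genes are near-identical copies among which the authors' counting divides reads, so single values within the family are uncertain.

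Antiviral effectors gave 28 falls among 41 genes tested. Bst2, the tetherin that holds budding virus at the membrane, had 452 and 486 CPM in MEF_creAF10 and 679 and 754 CPM in MEF_fl, a log2 change of -0.61 ± 0.07 (SE, edgeR adjusted p = 3.48e-06). Mx1, a dynamin-like GTPase against RNA viruses, had 26.9 and 29.1 CPM in MEF_creAF10 and 51.2 and 59.7 CPM in MEF_fl, 1.98-fold lower. Ifit1, which binds viral RNA, had 510 and 532 CPM in MEF_creAF10 and 677 and 861 CPM in MEF_fl. In these 3 genes every MEF_creAF10 library lay below every MEF_fl library. Ifi44 fell by 0.80 ± 0.08, Parp12, an ADP-ribosyltransferase, by 0.57 ± 0.07, and Ly6e, a membrane protein, by 0.49 ± 0.07 on the log2 scale (SE). Gm4902 had 2.69 and 2.12 CPM in MEF_creAF10 and 7.77 and 8.92 CPM in MEF_fl, 3.52-fold lower. It stands beside near-copies, Phf11 and D14Ertd668e, so its value is uncertain. Exceptions within the same list were Ifitm2 and Ifi30, with log2 differences of 0.06 and 0.15 that did not pass.

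ISG15 is a ubiquitin-like protein that enzymes attach to other proteins. All 4 genes tested on its list fell, ISG15's own gene and 3 enzymes. Isg15 had 416 and 413 CPM in MEF_creAF10 and 540 and 625 CPM in MEF_fl, a log2 change of -0.49 ± 0.08 (SE). Its activating enzyme Uba7 fell by 0.48 ± 0.08, its conjugating enzyme Ube2l6 by 0.65 ± 0.08 and the ligase Herc6 by 0.75 ± 0.10 on the log2 scale (SE). The largest list median, -0.80, belonged to the GTPases that interferon induces, in which 13 of 15 genes fell and all 15 were negative in both pairs. Gbp2, a guanylate-binding protein, had 69.8 and 50.8 CPM in MEF_creAF10 and 125 and 118 CPM in MEF_fl, 2.04-fold lower. Iigp1, a GTPase that acts on vacuoles of intracellular parasites, had 240 and 295 CPM in MEF_creAF10 and 359 and 455 CPM in MEF_fl. Gvin1 had 109 and 36.2 CPM in MEF_creAF10 and 164 and 72.8 CPM in MEF_fl; the groups overlap because replicate 2 is low in both, and each pair fell. Ifi47 fell by 1.01 ± 0.13, Gbp3 by 0.85 ± 0.09 and Gbp9 by 0.80 ± 0.11 on the log2 scale (SE).

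Genes for antigen presentation came next. Of 19 genes for MHC class I and its peptide loading 7 fell, with a list median of -0.36. H2-K1, a classical class I heavy chain, had 164 and 124 CPM in MEF_creAF10 and 220 and 192 CPM in MEF_fl. H2-D1 fell by 0.40 ± 0.07 and H2-T23 by 0.55 ± 0.08 on the log2 scale (SE), though class I genes have close copies and single values are uncertain. The peptide transporter genes Tap1 and Tap2 fell by 0.46 ± 0.07 and 0.36 ± 0.07. Nlrc5, which activates class I transcription, fell by 0.66 ± 0.12 (SE). The light chain gene B2m had a log2 difference of -0.25 ± 0.07 and did not pass (edgeR adjusted p = 0.133). Of 5 immunoproteasome genes 2 fell. Psmb9 had 7.82 and 8.15 CPM in MEF_creAF10 and 13.7 and 15.7 CPM in MEF_fl. Psmb8 had 37.1 and 22.2 CPM in MEF_creAF10 and 48.1 and 39.4 CPM in MEF_fl. Of 3 interferon-induced chemokines tested Cxcl10 fell, by 0.67 ± 0.13 on the log2 scale (SE), and Ccl5 had a difference of -0.22 ± 0.22 that did not pass.

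**Figure D4:**
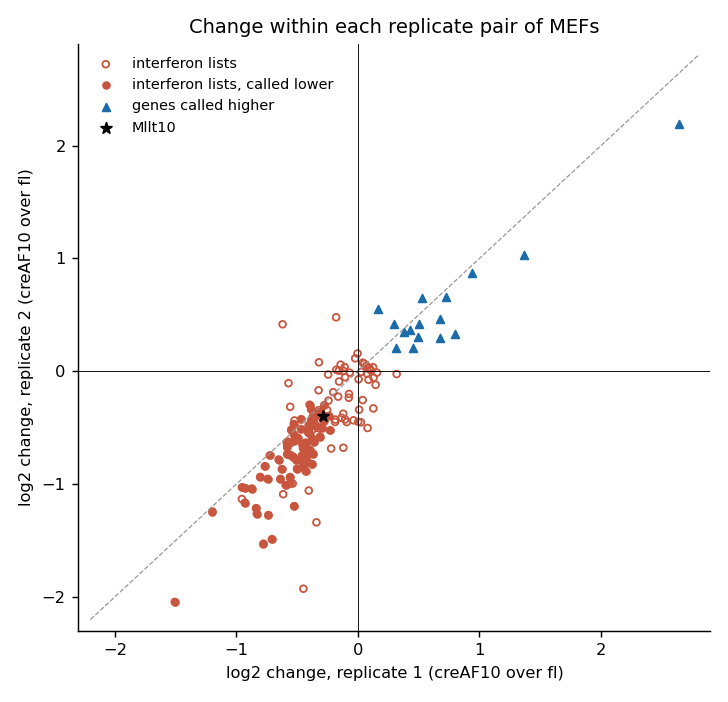
Log2 change of MEF_creAF10 over MEF_fl within the pair of replicate 1 (horizontal axis) and of replicate 2 (vertical axis), with equality as a dashed line; circles are the 136 interferon genes, triangles 16 of the 17 genes that rose, and Prl2c4 is not drawn. Most filled circles lie below the dashed line, so the fall is larger in replicate 2, and Mt1 lies at 2.64 and 2.19.

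Genes that fell often stood beside each other in the genome. Taking the order of tested genes from RefSeq on GRCm38.p6, 41 of 116 placed genes that fell (35.3%) had another gene that fell as an immediate neighbour, against 175 of 13783 other genes (1.27%). Such neighbours were Gbp5, Gbp6, Gbp3 and Gbp2, Psmb9, Tap1, Psmb8 and Tap2, Oasl2 and Oasl1, Rsad2 and Cmpk2, Parp14, Dtx3l and Parp9, and Mx1 and Mx2. Several of these are families of related genes.

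The 45 genes that fell outside the interferon lists were also small in effect, with a median log2 change of -0.50. Several are known to be induced by interferon though not on the lists, including Pml, which organises nuclear bodies, with 93.0 and 90.4 CPM in MEF_creAF10 and 124 and 121 CPM in MEF_fl, and Trex1, a DNA exonuclease, with 22.8 and 21.3 CPM in MEF_creAF10 and 32.8 and 31.5 CPM in MEF_fl. Others have different known roles. The transcription factor genes Klf10 and Klf11, induced by TGF-beta, fell by 0.55 ± 0.09 and 0.69 ± 0.10 on the log2 scale (SE), and Klf11 had 13.7 and 12.9 CPM in MEF_creAF10 and 22.2 and 20.7 CPM in MEF_fl. Txnip, an inhibitor of thioredoxin, fell by 0.53 ± 0.10 and Apod, a lipocalin, by 0.50 ± 0.09 (SE). Lgals1, a galectin, fell by 0.31 ± 0.08 on the log2 scale, with 1111 and 838 CPM in MEF_creAF10 and 1246 and 1147 CPM in MEF_fl. These 7 genes were chosen after their values were seen. Rangrf was called although its reads, 2.25 CPM, came from MEF_fl replicate 2 alone. The other 3 libraries held 0, so the call is not a repeated change.

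Of the genes that rose and were seen in more than 1 library, Mt1 changed most. It had 380 and 552 CPM in MEF_creAF10 and 61.1 and 121 CPM in MEF_fl, and every MEF_creAF10 library lay above every MEF_fl library. The log2 change was 2.40 ± 0.09 (SE), a 5.29-fold difference (edgeR adjusted p = 1.77e-13, 0.497 without the replicate block). The change was 2.64 in replicate 1 and 2.19 in replicate 2, and its call held in each fit that left out 1 library. Mt2, the family member that lies beside it, had 72.1 and 79.6 CPM in MEF_creAF10 and 48.1 and 77.6 CPM in MEF_fl. The log2 difference of Mt2 was 0.29 ± 0.10 (SE, edgeR adjusted p = 0.442), 0.58 in replicate 1 and 0.04 in replicate 2, and it was called higher without either library of replicate 2. Mtf1, the zinc-sensing factor that drives metallothioneins, and Slc30a1, a zinc exporter that it also drives, had log2 differences of -0.08 ± 0.09 and -0.10 ± 0.10 and did not pass. Of 9 metallothionein and zinc genes tested Mt1 alone was called. The promoters of Mt1, which rose, and Mt2, which did not pass, are shown side by side, with the metal response element core in capitals (TGCACNC or TGCGCNC, either strand). Of the genes tested that have a promoter, 34.1% hold that core in the 250 bases before a start. The windows shown hold 150 bases, and Mt2 has a further core outside its window, at -223 from its start. Bases after the annotated start were not searched, and the place of that start was not checked. The number of cores shown therefore does not rank Mt1 and Mt2.
Mt1, chr8:94178939-94179088, plus strand: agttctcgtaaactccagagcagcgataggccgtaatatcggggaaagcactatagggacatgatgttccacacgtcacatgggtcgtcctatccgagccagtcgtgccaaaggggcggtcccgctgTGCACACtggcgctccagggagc
Mt2, chr8:94172468-94172617, plus strand: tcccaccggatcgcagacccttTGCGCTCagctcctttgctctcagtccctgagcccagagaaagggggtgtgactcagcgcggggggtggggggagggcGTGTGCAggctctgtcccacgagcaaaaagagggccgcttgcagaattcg

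Besides Mt1, 16 genes rose, all but Tymp and Prl2c4 by less than 2-fold. Ctgf, a matricellular protein and target of YAP, had 254 and 161 CPM in MEF_creAF10 and 180 and 131 CPM in MEF_fl, a log2 change of 0.40 ± 0.07 (SE). Its groups overlap, because replicate 2 is lower in both, and both pairs rose. Feedback inhibitors of ERK signalling, Spry4 and Dusp6, rose by 0.59 ± 0.12 and 0.36 ± 0.08 on the log2 scale (SE), 2 of 13 genes on that list. The immediate early gene Nr4a1 rose by 0.46 ± 0.08, 1 of 22 on its list, and the neutrophil chemokine Cxcl1 by 0.58 ± 0.13, 1 of 23. Plk2, a kinase that p53 induces, rose by 0.26 ± 0.07, 1 of 26 p53 targets. Rps29, a ribosomal protein gene with many processed copies, rose by 0.48 ± 0.09, 1 of 28 ribosomal protein genes, and its value is uncertain. The other genes that rose in both pairs were Flrt3, Cwc15, Mpv17l, Npcd, Ifi27l1, Tomm6, Tymp and Lgals4. Ifi27l1 is not on the interferon lists, though Ifi27l2a, of a similar name, is on them and fell. Ifi27l1 had 88.4 and 101.5 CPM in MEF_creAF10 and 68.1 and 79.9 CPM in MEF_fl. Tymp, a thymidine phosphorylase, had 2.69 and 3.04 CPM in MEF_creAF10 and 1.01 and 1.46 CPM in MEF_fl, and Lgals4 had 3.23 and 2.72 CPM in MEF_creAF10 and 1.66 and 1.46 CPM in MEF_fl. Prl2c4 was called on 1.55 CPM in MEF_creAF10 replicate 1 alone, with 0 in the other 3 libraries, so its fitted change is not a repeated one. Without the replicate block 0 of the 17 were called, and the number called by DESeq2 with the block was 5.

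Genes that mark the state of the cell gave no calls, in lists of 14 to 40 genes tested. At the shares called over all genes, 0.840% lower and 0.122% higher, lists of this size would hold few or none, so these counts single out no list. None of 28 fibroblast and matrix genes, 21 mesenchymal regulators, 36 proliferation genes, 15 senescence and G1 genes, 14 genes of oxidative and proteotoxic stress or 40 Hox and Meis genes was called. The log2 differences of the 28 fibroblast genes ran from -0.13 to 0.07. Of the 4 reprogramming factors none was called, and Klf4 had 213 and 155 CPM in MEF_creAF10 and 208 and 165 CPM in MEF_fl.

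The genes closest to the threshold were weakly separated by it. Just inside were Intu, with a log2 change of -0.47 and edgeR adjusted p of 0.0487, and Plk2 and Tomm6, both at 0.0495. Just outside were Agrn, at a log2 difference of -0.27 with edgeR adjusted p of 0.0501, Oas1g and Rps25.

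The change of the interferon genes in MEFs was set beside that on day 4 of reprogramming in DMSO. Over the 136 genes the median log2 difference was -0.43 in MEFs and 0.01 on day 4. On day 4, 5 of the 136 were called higher (3.68%, against 3.37% of all genes tested) and 2 lower (1.47%, against 3.37%), shares near or below those of all genes. The levels were lower on day 4: the median over the 136 genes was 13.7 CPM in Day4_creAF10_DMSO and 12.7 CPM in Day4_fl_DMSO, while it was 53.1 CPM in MEF_creAF10 and 67.3 CPM in MEF_fl. Ifit1 had 5.35 and 10.8 CPM in Day4_creAF10_DMSO and 7.18 and 11.1 CPM in Day4_fl_DMSO. At such levels the day 4 changes are less precise, and the part of the level in the differences was not tested. Some genes had day 4 differences near those in MEFs that did not pass on day 4: Rsad2 had -0.74 ± 0.11 in MEFs and -0.75 ± 0.33 on day 4, Cmpk2 -0.59 ± 0.13 and -0.62 ± 0.27, and Usp18 -0.49 ± 0.07 and -0.45 ± 0.18 (SE). These 3 genes were chosen after their values were seen. Day 4 cells had received 2 µg/mL doxycycline for 4 days from 2 days after infection, in embryonic stem cell medium on DR4 feeder MEFs, so stage, time, medium and feeders cannot be told apart. The difference between the changes was tested directly and passed for 161 of 13936 genes (1.16%), 130 of them lower in MEFs than on day 4. Of the 136 interferon genes 32 passed, all lower in MEFs. Their lists were known to move in these data, which favours passing. The count for all genes was 0 without the replicate block and 68 with DESeq2. It was 95 without either replicate 1 library of MEFs and 35 without either replicate 2 library.

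Bst2 had 452 and 486 CPM in MEF_creAF10 and 679 and 754 CPM in MEF_fl, and on day 4 it had 96.7 and 84.0 CPM in Day4_creAF10_DMSO and 75.5 and 74.9 CPM in Day4_fl_DMSO. Its changes therefore ran in opposite directions, -0.61 ± 0.07 in MEFs and 0.26 ± 0.07 on day 4 (SE), a difference of -0.87 ± 0.10 (edgeR adjusted p = 1.81e-05). Oas1a had 5.08 and 5.86 CPM in Day4_creAF10_DMSO and 6.09 and 5.91 CPM in Day4_fl_DMSO, a level far below that of either MEF group, and the difference between the changes was -0.83 ± 0.17 (SE). Mt1 rose at both times, with 316.9 and 209.7 CPM in Day4_creAF10_DMSO and 231.8 and 135.1 CPM in Day4_fl_DMSO, but by less on day 4. The change of Mt1 was 2.40 ± 0.09 in MEFs and 0.54 ± 0.09 on day 4, a difference of 1.86 ± 0.12 (SE, edgeR adjusted p = 1.33e-08). Mt2 rose on day 4, by 0.56 ± 0.10 (SE, edgeR adjusted p = 0.00233), and the difference between its changes, -0.27 ± 0.14, did not pass. Mllt10 fell at both times, by 0.34 ± 0.08 in MEFs and 0.44 ± 0.08 on day 4, and the difference, 0.09 ± 0.11 (SE), did not pass.

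**Figure D5:**
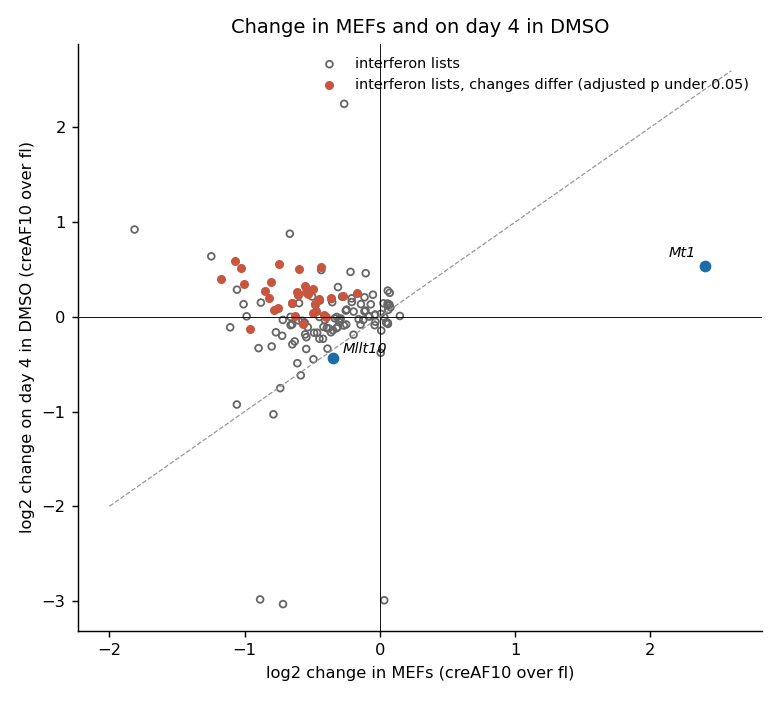
Log2 change of creAF10 over fl in MEFs (horizontal axis) and on day 4 in DMSO (vertical axis) for the 136 interferon genes, with equality as a dashed line and filled circles where the changes differ by the edgeR test. The 32 filled circles lie left of the dashed line, Mllt10 lies near it, and Mt1 lies far to its right.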

How the data were processed

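Per the labels' protocols, polyadenylated RNA went into TruSeq libraries. The submitters' processing notes name RSEM, Bowtie and build mm9, with versions not given in the sources used here. The deposited tables hold RSEM expected counts, which divide reads shared between similar genes, and the deposited TPM and FPKM values, both per length; FPKM was not used. Some deposited gene names read as dates (25 per file in 10 libraries), so rows were joined by transcript identifiers.

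Expected counts were rounded, and genes kept by filterByExpr over the 6 groups, 13936 of 20325. edgeR 4.0.16 in R 4.3.3 fitted all 12 libraries with TMM scaling, a term per group and the replicate number within stage as a block; the quasi-likelihood F test (robust) and Benjamini-Hochberg adjustment over all genes tested gave the calls (adjusted p under 0.05). The SE is the log2 change divided by the square root of F, in size. Pair values use log2 CPM with a prior count of 1. The day 4 libraries add residual degrees of freedom: there are 4, beside a median of 22.4 shared across genes. Under the robust setting the shared number varies between genes. The same ratio of change to SE can therefore pass in some genes and not in others. The block was used because the comparison was set to pair libraries by replicate number. Same-numbered libraries deviated together, with correlations across genes of 0.27 to 0.70 over 15 pairs of groups and 0.70 between the MEF groups. The lowest, 0.27, was between a MEF group and a day 4 group, which the block within stage does not join. Y-linked counts separate the numbers. The biological coefficient of variation was 0.0549 with the block and 0.148 without. Replicates differed by far more than counting noise, with a mean chi-square per gene of 42.1 in MEF_creAF10 and 38.8 in MEF_fl. The fit was tested on simulated data with the same spread for all genes and the replicate block taken as given. The pairing itself was therefore not tested. DESeq2 1.42.0, other scalings, other filters and leaving out each MEF library were the alternatives.

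The comparison, the gene lists, the design and the rule for named genes were chosen with earlier results of these data known. The rule names Mllt10, Dot1l and its partners, Mt1, Mt2, Oas1a and Bst2, the 20 called genes of lowest p in each direction, and up to 8 called members of each interferon list and 4 of any other list. Of the genes tested, 13899 matched RefSeq by transcript identifier, or by symbol where no identifier matched, and 11049 had a promoter. Where the text gives values of other list members, they illustrate the list. Some genes of these lists are not reported here by name.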

Additional observations from a re-analysis of the deposited data

Results flagged for a closer look

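Of 74 named genes, 27 changed differently in MEFs than on day 4 in DMSO by the test of the difference itself (edgeR quasi-likelihood test, adjusted p under 0.05), 26 of them lower in MEFs. Over all 13936 genes tested, 161 (1.16%) passed it. Of the named genes 65 were called in MEFs, and the change in MEFs is part of the tested difference. Being named therefore favours passing, and the count of 27 describes these genes only. The values are the log2 change of creAF10 over fl in MEFs minus that on day 4. Mt1 stood at 1.86. The other 26 were Bst2 -0.87, Gbp2 -1.54, Oas2 -1.31, H2-T23 -0.81, H2-K1 -0.78, Gvin1 -0.86, Ifi204 -0.79, Ube2l6 -0.80, Gbp3 -1.12, Igtp -0.83, Ly6e -0.53, Ifi203 -0.80, Gbp9 -1.18, Lgals9 -0.63, Tap2 -0.56, Oas1a -0.83, Psmb8 -1.10, Herc6 -0.85, Uba7 -0.62, Parp12 -0.49, Zbp1 -1.02, Ifi47 -1.35, H2-T22 -0.64, Ddx58 -0.43, Dhx58 -0.88 and H2-D1 -0.39. Without the replicate block 0 genes passed this test. Stage, time since infection, medium and feeder cells all differ between the comparisons, and their part in the differences cannot be told apart.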

How the results depend on the processing

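The replicate block decided the calls. Without the replicate block edgeR called 0 genes higher (17 with it), 0 lower (117), 0 interferon genes lower (72) and 0 genes different from day 4 (161); in the 4 MEF libraries alone and without the block it called 0 higher, 0 lower and 0 interferon genes. With 1 replicate block for both stages the counts were 0 higher, 6 lower, 5 interferon genes and 0 different. The 4 MEF libraries alone with the replicate block gave 54 higher and 182 lower, among them 16 of the 17 and 115 of the 117, on 1 residual degree of freedom of their own. DESeq2 gave 5 higher, 64 lower and 68 different, and dropping the low count filter gave 327 different. Leaving out 1 MEF library gave 4 to 11 higher, 17 to 87 lower, 14 to 61 interferon genes and 35 to 95 different; fewer samples and 1 pair of MEFs are part of that alternative, and for the others the cause was not tested. Of 1032 values for 74 named genes under 14 alternatives, 8 changed sign, all of genes not called: Dot1l ran from -0.12 to 0.0019, Mllt3 from -0.039 to 0.034 and Trrap from -0.059 to 0.0022 on leaving out 1 MEF library, and Mllt3 was 0.0019 with 1 block for both stages and 0.0095 with library totals. No detection limit was measured with 2 libraries a group.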
